A study of Mus musculus with 2 samples.

Results

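Aldo-keto reductases of mouse ovary were examined as 10 genes chosen by symbol from the aldose reductase group (*Akr1b3*, *Akr1b7*, *Akr1b8*, *Akr1b10*), the hydroxysteroid dehydrogenase group (*Akr1c12*, *Akr1c13*, *Akr1c14*, *Akr1c18*), *Akr1a1* and *Akr1e1*. They were 10 of 20753 genes measured, and 16 of 45037 probe sets named 1 of them alone. The genes were chosen with their values on these arrays known, *Akr1b7* above all, so the values that follow are a description. PNA (prenatally androgenized) mice were female ICR offspring of dams injected subcutaneously each day, from gestation day 16 to 18, with 350 µg of dihydrotestosterone (DHT, an androgen that is not converted to estrogen) in 70 µl of sesame oil. Control mice were female ICR offspring of dams given the oil alone on the same days. Each group contained 5 ovaries and was represented by 1 Affymetrix mouse expression array, so that no spread between replicates, SD or p-value can be given. The labels place the removal of ovaries on diestrus and also mention their fixation in Bouin's solution, and neither the age at which these ovaries were taken nor the way their RNA was combined was stated. The lowest and highest signals were 4.15 and 16451.5 for control, and 4.07 and 15867 for PNA. In whole ovaries, a change in the number of cells that express a gene and a change in RNA per cell cannot be told apart.

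Aldo-keto reductases use NADPH to reduce aldehydes and ketones to alcohols. In steroid-forming tissue they act on several substrates at once: they remove the aldehyde set free when the cholesterol side chain is cut, turn prostaglandin H2 into prostaglandin F2α, and inactivate steroids by reducing a keto group. In the rodent ovary, the 20α-reduction of progesterone by the enzyme of *Akr1c18* accompanies the regression of the corpus luteum. All 10 genes carried the annotation of oxidoreductase activity in the deposited tables, and 6 of them that of an alditol oxidoreductase using NADP.

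Most of these genes lie side by side in the genome. *Akr1b3*, *Akr1b8*, *Akr1b10* and *Akr1b7* occupy 119 kb of chromosome 6 (GRCm38.p6, chr6:34303930-34423137), with no other protein-coding gene between them in the RefSeq annotation. The Akr1c genes and *Akr1e1* lie in 560 kb of chromosome 13 (chr13:4048991-4609164) among 9 protein-coding genes, all of them aldo-keto reductases. *Akr1a1* is alone on chromosome 4 (chr4:116636510-116651674). The promoters of 9 of the 10 genes were matched by symbol in a RefSeq table of GRCm38.p6, and those of 2 pairs are shown: *Akr1b7* and its neighbour *Akr1b10*, which differed most in their ratio, and *Akr1c12* and *Akr1c13*, which share a probe set. Each is given 5′ to 3′ up to the last base before the annotated gene, and capitals mark the half-sites AGGTCA, bound by nuclear receptors such as SF-1 (*Nr5a1*), and AGAACA, a half-site of steroid receptors, or their reverse complements TGACCT and TGTTCT.
Akr1b7 (chr6:34412112-34412361, plus strand): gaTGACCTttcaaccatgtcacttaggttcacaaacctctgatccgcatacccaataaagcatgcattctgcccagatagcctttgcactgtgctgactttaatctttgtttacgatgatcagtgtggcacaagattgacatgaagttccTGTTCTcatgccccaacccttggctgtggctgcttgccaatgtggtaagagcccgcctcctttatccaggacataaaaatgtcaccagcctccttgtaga
Akr1b10 (chr6:34383997-34384246, plus strand): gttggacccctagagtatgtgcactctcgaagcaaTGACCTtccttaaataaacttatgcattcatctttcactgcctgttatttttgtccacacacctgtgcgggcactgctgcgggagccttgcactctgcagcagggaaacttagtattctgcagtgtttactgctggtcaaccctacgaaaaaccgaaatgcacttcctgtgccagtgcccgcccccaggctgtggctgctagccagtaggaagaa
Akr1c13 (chr13:4190937-4191167, plus strand): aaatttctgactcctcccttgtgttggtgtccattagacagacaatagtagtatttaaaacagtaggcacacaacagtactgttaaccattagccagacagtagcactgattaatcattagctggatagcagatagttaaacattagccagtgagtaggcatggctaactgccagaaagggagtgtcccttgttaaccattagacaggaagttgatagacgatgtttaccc
Akr1c12 (chr13:4279400-4279649, minus strand): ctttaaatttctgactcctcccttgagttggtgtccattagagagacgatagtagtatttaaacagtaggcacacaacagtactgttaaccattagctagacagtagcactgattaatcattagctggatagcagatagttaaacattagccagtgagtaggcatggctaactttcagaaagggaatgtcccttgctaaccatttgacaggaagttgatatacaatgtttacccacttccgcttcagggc
Of the 231 bases printed for *Akr1c13*, 219 were identical to the aligned base of *Akr1c12*. Over the windows of 250 bases before the start sites in the RefSeq table, of which the last 19 for *Akr1c13* lie inside the annotated gene and are not printed, this pair was identical at 92.5% of aligned positions, against 46.4% to 55.9% (median 49.5%) for the other 35 pairs of members. AGGTCA on either strand was found in 2 of the 9 members, *Akr1b7* and *Akr1b10*, and in 4607 of 32851 (14.02%) promoter windows of the same length, each counted on both strands. AGAACA was found in *Akr1b7* alone among these 9, and in 16.1% of all windows. *Akr1b3* was the member without a matched promoter, so it was searched for neither half-site. A match of 6 letters is a description of the sequence and not evidence of binding.

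Of the 10 genes, 9 lay above the floor, the 40th percentile of each array (30.4 and 30.6 in units of signal, control first). *Akr1b7* and *Akr1c13* were at least 1.5-fold higher in PNA ovaries, *Akr1c14* was at least 1.5-fold lower, and 6 genes stayed under 1.5-fold, with log2 ratios of PNA over control from -0.42 to 0.45. By the same criterion, 2.49% of the 14117 genes that passed the floor in either group were higher and 2.16% were lower. Of all 45037 probe sets, 2.16% were higher and 1.59% lower, and of the 16 probe sets of the members 2 were higher and 1 was lower. The genes were chosen from this same contrast, so nothing is read from their count. The median log2 ratio was 0.20 over the 9 members above the floor and 0.13 over all 10, beside -0.01 over all genes above the floor. The plot of signals by probe set shows every value.

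**Figure D1:**
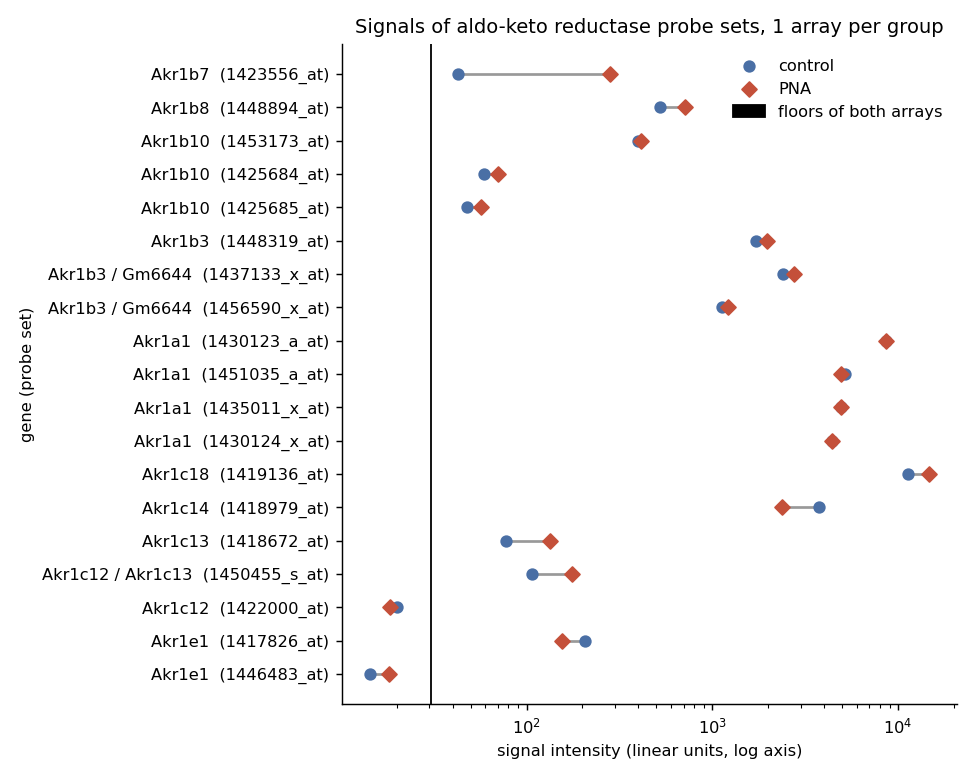
Signal intensity (linear units, log axis) of each aldo-keto reductase probe set on the control array (circles) and the PNA array (diamonds), 1 array per group, with the floors of both arrays as a vertical line; names joined by a slash are probe sets shared by those genes. Akr1b7 moved from 42.5 to 279.9, whereas all 4 probe sets of Akr1a1 had nearly the same signal on both arrays.

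*Akr1b7* encodes an enzyme first described in the mouse vas deferens, where androgen drives its expression, and known in the mouse adrenal for clearing isocaproaldehyde and for forming prostaglandin F2α. Its signal was 42.5 in controls and 279.9 in PNA mice. The control value lay just above the floor and the PNA value well above it. The log2 ratio was 2.72, or 6.58-fold higher, and 1 of the 13571 genes above the floor on both arrays, *Slit2*, had a higher one. It rests on a single probe set, which aligned to 1 place in the genome. Among 5266 probe sets with a mean log2 signal within 0.5 of that of *Akr1b7*, 3.72% were at least 1.5-fold higher and 2.39% lower. With 50 added to both signals, which damps the ratio of dim probe sets, its log2 ratio was 1.83. Of the genes with the nearest measured log2 ratios, *Slit2* (3.15), *Comp* (2.64) and *Ifit1* (2.27) were above the floor on both arrays. The others, *Aldh1a7* and *Igk-V28*, were under the floor on the control array, so that they were at least 3.97-fold and at least 1.97-fold higher and have no exact place beside *Akr1b7*.

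The neighbours of *Akr1b7* on chromosome 6 differed between the arrays by much less. *Akr1b8*, a reductase gene found as induced by fibroblast growth factor in mouse fibroblasts, went from 521 in controls to 711 in PNA mice, 1.36-fold. *Akr1b3*, the aldose reductase that turns glucose into sorbitol, went from 1713 to 1972 on the probe set that names it alone, 1.15-fold. Both were higher in PNA mice and stayed under the criterion. A further 2 probe sets are assigned to *Akr1b3* together with *Gm6644*, and went from 2399 to 2743 and from 1128 to 1215, with log2 ratios of 0.19 and 0.11. All 3 aligned to 3 places in the genome, so these signals may hold transcripts of other copies. *Akr1b10*, which lies next to *Akr1b7*, had signals of 399 and 415 on its brightest probe set, 1.04-fold. Its dimmer probe sets went from 59.3 to 69.9 and from 47.7 to 57.2, with log2 ratios of 0.24 and 0.26. Of the 4 genes in the chromosome 6 cluster, *Akr1b7* alone passed 1.5-fold. Among all genes above the floor, 2.49% were higher and 2.16% lower by this criterion. *Akr1b7* was chosen with its value known, so nothing is read from the count.

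*Akr1a1*, an aldehyde reductase that also serves the synthesis of vitamin C in the mouse, had the most probe sets. Its signals on the control and PNA arrays were 8597 and 8553, 5146 and 4938, 4954 and 4910.5, and 4417 and 4423. The log2 ratios of the 4 probe sets lay between -0.06 and 0.00.

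**Figure D2:**
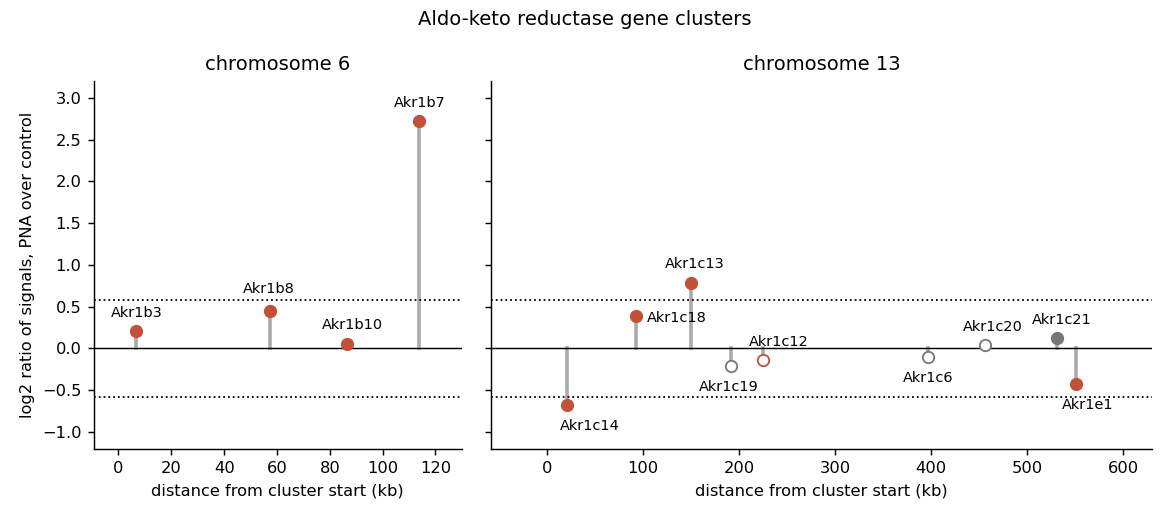
Log2 ratio of signals, PNA over control (1 array per group), for the aldo-keto reductase genes in their order along chromosomes 6 and 13, against the distance in kb from the start of each cluster to the middle of each gene. Red points are the members and grey points other aldo-keto reductases, open points lay below the floor on both arrays, and dotted lines mark 1.5-fold. Akr1b7 at 2.72, Akr1c13 at 0.79 and Akr1c14 at -0.68 lie beyond the dotted lines.

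Of the 5 genes of the chromosome 13 cluster above the floor, 1 rose by at least 1.5-fold and 1 fell by as much. Among all genes above the floor, 2.49% were higher and 2.16% lower. The members were chosen from this same contrast, so nothing is read from the count. *Akr1c14* encodes a 3α-hydroxysteroid dehydrogenase, which reduces DHT and 5α-dihydroprogesterone to their 3α-hydroxy forms. Its signal fell from 3768 in controls to 2359 in PNA mice (log2 ratio -0.68, 1.60-fold lower) on 1 probe set. Among 635 probe sets of like mean signal (within 0.5 on the log2 scale), 0.945% were at least 1.5-fold higher and 0.63% lower. The call held under median scaling, quantile normalization, loess and an offset of 50, and was lost at 2-fold. With 1 probe set above the floor on both arrays, the other rules for floor and probe set could not change it.

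*Akr1c18*, the next gene, encodes the 20α-hydroxysteroid dehydrogenase that converts progesterone to the weakly active 20α-dihydroprogesterone. Its signal was 11274.5 in control and 14741 in PNA ovaries, a log2 ratio of 0.39, or 1.31-fold. This is under the criterion, and the PNA value lies near the highest signal of that array. None of the 113 probe sets of like mean signal was 1.5-fold higher or lower, so a change of that size was not seen at this brightness for any probe set. The genes nearest to it in log2 ratio were *Efemp1*, *Dnah8* and *Naaa* above it and *2610201A13Rik*, *Mrpl10* and *Cblb* below it, all at 0.39 to 2 decimals.

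*Akr1c13* rose from 77.5 to 134, a log2 ratio of 0.79, or 1.73-fold higher, on 1 probe set. The probe set shared by *Akr1c12* and *Akr1c13* rose from 107 to 175.5, 1.63-fold. The probe set that names *Akr1c12* alone did not reach the floor in either group (20.2 and 18.3) and is given no direction. These genes have near-identical promoter windows. The shared probe set aligned to 1 place in the genome but is assigned to both genes, and its signal was not divided between them. Among 5304 probe sets of like signal to that of *Akr1c13*, 3.83% were at least 1.5-fold higher and 2.47% lower. With 50 added to both signals, *Akr1c13* had a log2 ratio of 0.53, under 1.5-fold.

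*Akr1e1*, the reductase of 1,5-anhydrofructose, lies at the other end of the cluster. Its signal was 207 in control and 155 in PNA ovaries, 1.34-fold lower and under the criterion. A further probe set, at 14.4 and 18.2, did not reach the floor.

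**Figure D3:**
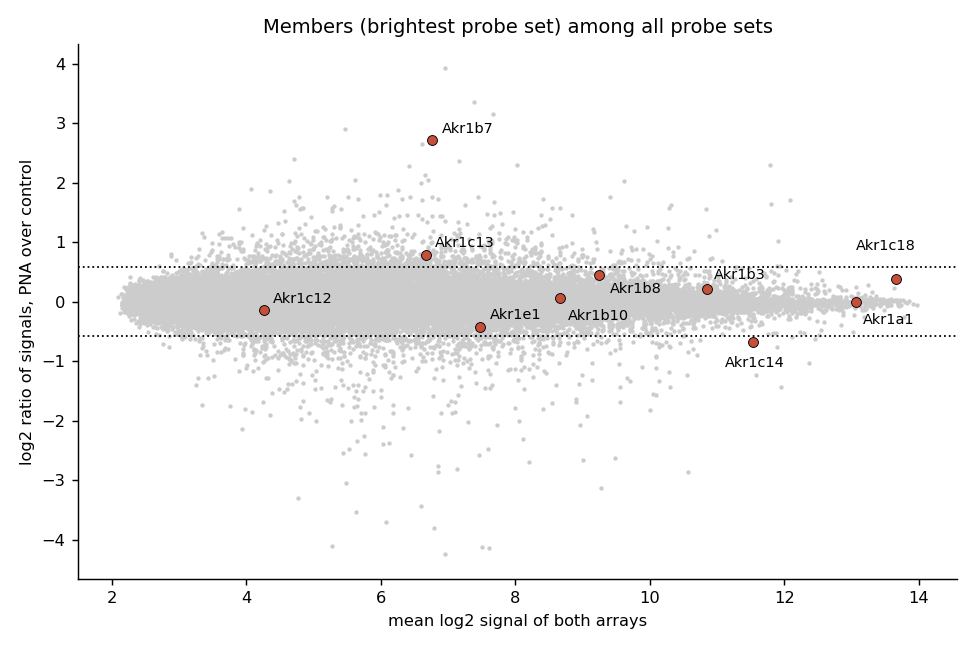
Log2 ratio of signals, PNA over control, against the mean log2 signal of both arrays for all probe sets (grey) and for the brightest probe set of each of the 10 aldo-keto reductase genes (red), 1 array per group; dotted lines mark 1.5-fold. Akr1b7 stands at 2.72, Akr1c14 lies below the lower line, and the grey points narrow towards the bright end where Akr1c18 lies.

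The other aldo-keto reductases on the array did not pass the criterion. Of 7 such genes, 3 lay above the floor and 0 were 1.5-fold higher or lower. *Akr1c21*, in the same cluster, had signals of 31.9 and 34.8, and *Akr7a5* had 828 and 859. *Akr1c6*, *Akr1c19*, *Akr1c20* and *Akr1d1*, the gene of the 5β-reductase of liver, were below the floor on both arrays.

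Genes that share a pathway with the members were then set beside them, from lists chosen with earlier results of these data known. In the counts of these lists and of the marker lists, rose and fell mean a change of at least 1.5-fold. Each count is to be read beside the share over all genes above the floor, 2.49% higher and 2.16% lower. Nothing about a pathway is read from these counts. The 5α-reductases make the substrates of *Akr1c14*. *Srd5a1* fell from 418 to 258, a log2 ratio of -0.70, and its 3 probe sets gave ratios from -0.72 to -0.69. *Srd5a3* had signals of 219 and 214, and *Srd5a2* did not reach the floor in either group (16.8 and 13.9). *Srd5a1* and *Akr1c14*, which act one after the other on progesterone and testosterone, were both lower on the PNA array. A link between their values was not tested. Of the 6 genes of DHT metabolism above the floor, *Srd5a1* alone fell and 0 rose, with a median log2 ratio of 0.01.

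For the prostaglandin pathway, 1 of 19 genes above the floor rose and 1 fell, with a median of 0.02. *Ptger2*, a receptor of prostaglandin E2, rose from 297 to 475 (log2 ratio 0.68). *Ptgds*, which makes prostaglandin D2, fell from 574 to 280.2 (log2 ratio -1.03), and its other probe set gave -1.67. *Ptgfr*, the receptor of prostaglandin F2α, went from 3968 to 4374, and *Prxl2b*, a prostaglandin F synthase that is not an aldo-keto reductase, from 728 to 701, both under 1.5-fold. *Ptgs2*, the inducible cyclooxygenase, did not reach the floor in either group (7.28 and 9.12).

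Genes of progesterone formation and luteal control, all 23 above the floor, had a median of -0.03, and 1 rose and 3 fell. Among all genes above the floor, 2.49% were higher and 2.16% lower. *Lhcgr*, the LH receptor, fell from 1246 to 458 (log2 ratio -1.44), and *Cdkn1b*, a cell cycle inhibitor, from 1641 to 963 (-0.77). *Nr4a1*, an orphan nuclear receptor known in the rat corpus luteum to induce the *Akr1c18* homologue after prostaglandin F2α, fell from 1515 to 794 (log2 ratio -0.93). *Jun*, a subunit of the transcription factor AP-1, rose from 1203 to 2175 (log2 ratio 0.85). Prolactin holds *Akr1c18* down through STAT5, and of these genes *Prlr* went from 3700.4 to 2873 (log2 ratio -0.37, and -0.44 to -0.22 over 7 probe sets above the floor), *Stat5a* from 261 to 187 (-0.48) and *Stat5b* from 421 to 309.9 (-0.44). For *Stat5a* and *Stat5b*, which have 2 probe sets each, the brighter one is given. *Prlr*, *Stat5a* and *Stat5b* were lower on the probe sets given, all under 1.5-fold. They were chosen once their values had been seen, and a link between them and the signal of *Akr1c18* was not tested.

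Among transcription factors and receptors known to act on *Akr1b7*, 11 lay above the floor, of which 0 rose and 1 fell. *Nr1h4*, the bile acid receptor FXR, fell from 167 to 76.2 (log2 ratio -1.13). *Nr5a1* had signals of 597 and 637, and *Nr1h3*, the oxysterol receptor LXRα, 65.5 and 61.7. *Cebpd* went from 207 to 309 (log2 ratio 0.58), just under the criterion. *Aldh1a7*, an aldehyde dehydrogenase, alone of the 35 other aldehyde and carbonyl enzymes above the floor rose by at least 1.5-fold, and 0 fell by as much. Its signal went to 121 from below the floor in control ovaries (at least 3.97-fold). The plot of related lists sets these genes beside the members.

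**Figure D4:**
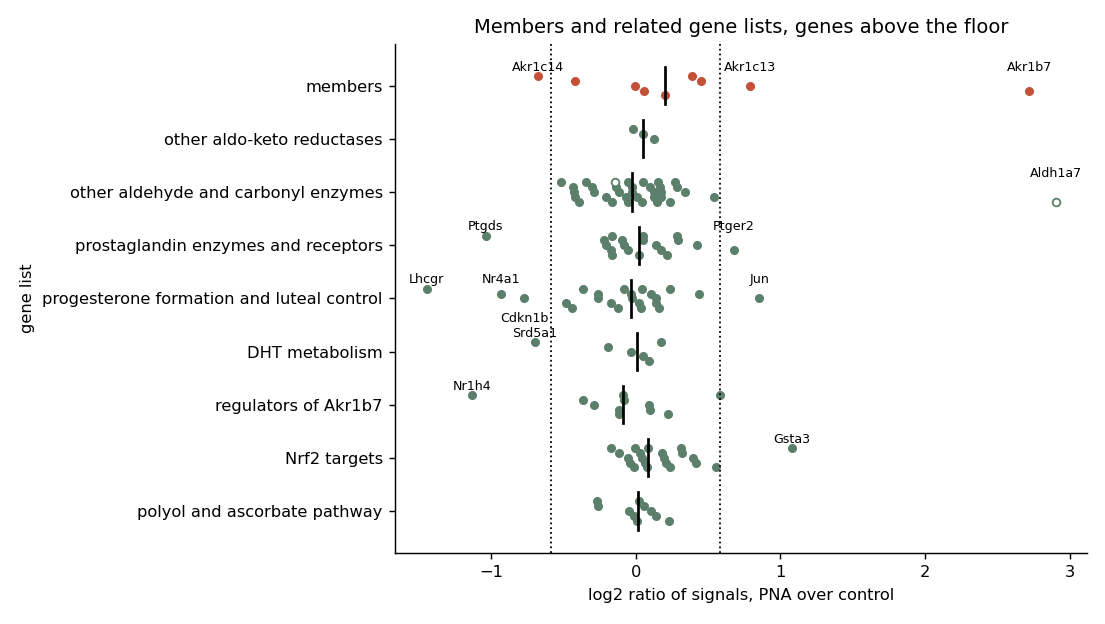
Log2 ratio of signals, PNA over control (1 array per group), of each gene that passed the floor in either group, for the members (red) and for 8 related gene lists (green); black bars are medians, dotted lines mark 1.5-fold, and open points lay below the floor on 1 array, so that their plotted ratio is the measured one and not a bound. Genes beyond 1.5-fold are named, with Akr1b7 at 2.72 the highest of the filled points and Lhcgr at -1.44 the lowest.

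Markers of other cell types were measured beside these genes, since *Akr1b7* is abundant in the mouse adrenal cortex. Of 5 adrenal markers, *Mc2r* (13.6 and 11.8) and *Cyp11b2* were below the floor on both arrays, and *Cyp11b1*, which forms corticosterone, lay just above it at 34.1 and 39.0. *Cyp21a1* had signals of 102 and 106. The summed signal of the adrenal list was 1052 in control and 1259 in PNA ovaries, of which *Mrap* gave 882 and 1079, and 0 of its members reached 1.5-fold. Other lists had markers past 1.5-fold, where 2.49% of all genes above the floor were higher and 2.16% lower. Of 8 granulosa markers 2 rose, *Cyp19a1* and *Amh* (summed signal of the list 19167 to 21082, median log2 ratio 0.06). Of 7 theca and interstitial markers 1 rose, *Cyp17a1*, and *Lhcgr* fell (18831 to 22448, median 0.16). Of 7 surface epithelium markers 2 rose, *Krt19* and *Lrrn4* (1041 to 1444, median 0.53). Of 5 leukocyte markers above the floor, *Cd14* alone rose by at least 1.5-fold (631 to 821 over the list, median log2 ratio 0.37). Of 10 corpus luteum markers, which include *Akr1c18*, 0 rose by at least 1.5-fold, and *Lhcgr* and *Cdkn1b* fell by as much (62208 to 63630.5, median log2 ratio -0.03). All of them but *Akr1c18* are also in the list of progesterone formation and luteal control, so the counts of these lists are not separate. *Lhcgr* is counted in the theca and interstitial list as well. The oviduct markers *Ovgp1*, *Foxj1* and *Pax8* were below the floor on both arrays, and *Krt7* rose (list 247 to 275). The adipocyte marker *Adipoq* and the liver marker *Alb* were below the floor too, and no listed marker of fat (93.2 to 101) or of liver and kidney (463 to 572) reached 1.5-fold. Oocyte markers went from 2655 to 3127, with 0 of 8 past 1.5-fold, and all 8 oocyte and all 8 granulosa markers lay above the floor, as the label of ovary requires. The part of these cell types in the values of the members was not tested.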

How the data were processed

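The authors deposited a linear signal intensity per probe set and log2 values from which each probe set's centre had been taken. How the signals were summarised from the scans was not stated. Ratios from the linear and the centred columns differed by at most 2.01e-06, and the series values (log2, direction settled by this match) have a median of 0 on both arrays. Columns holding the authors' fold changes and lists of differential genes were not used. Of 45101 probe sets, 64 Affymetrix controls were left out. Ratios of PNA over control were computed with pandas 2.3.3 and numpy 2.4.6 (Python 3.11.15). No test was run, because 1 array per group leaves no spread, and the number of arrays limits the precision. For each gene the brightest probe set (by mean log2 signal) naming it alone was taken. Genes were named through Entrez IDs in the RefSeq table of GRCm38.p6. Where 1 of the groups was under the floor, the floor replaced its signal in the fold given in the text, which is a lower bound. Log2 ratios, counts past 1.5-fold and medians used the signals as measured. The criterion was 1.5-fold (0.585 on the log2 scale). The text names every member, up to 4 changed genes per related list, the nearest genes in ratio (3 on each side, 2 above *Akr1b7*, where no more exist) and defining markers. Further genes of the lists that bear on a member's substrate or control, such as *Prlr* and *Stat5a*, were chosen once their values had been seen. Some listed genes are not reported here and were left out of the counts of their lists. The members and lists were chosen with earlier results of these data known. Alternatives were median scaling, quantile normalization, loess (fraction 0.3, statsmodels 0.14.6), an offset of 50, other rules for floor and probe set, 2-fold, and the series values. The steps were tested on simulated data with changes well past the criterion and equal noise at all signals. This checked the code and says nothing about the precision at low signal.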

Additional observations from a re-analysis of the deposited data

How the results depend on the processing

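The log2 ratio of *Akr1b7* lay between 1.83 and 2.72 over the alternatives, past 1.5-fold in each. The gene has 1 probe set, above the floor on both arrays, so the rules for floor and probe set could not move it. With an offset of 50, 1 member was higher, since *Akr1c13* came to 0.53, and 281 probe sets of the array were higher and 263 lower, against 975 and 718 as reported. At a fold of at least 2, 1 member was higher and 0 were lower, with 208 probe sets higher and 203 lower. An offset damps dim signals and a stricter fold admits fewer genes by construction. When shared probe sets were counted for each gene they name, a choice made after the data were seen, *Akr1c12* went from -0.14, below the floor, to 0.71, and 3 members were higher. The median log2 ratio of the members lay between 0.13, with no floor, and 0.29, with shared probe sets. Of the other single-gene values, 97 stayed on the same side of 1.5-fold. A further 1 fell under it (*Akr1c13* with the offset) and 1 changed direction (*Akr1c12* with shared probe sets). Many could not move, because a gene with a single probe set above the floor has the same value under most rules. Median scaling moved the median log2 ratio of all probe sets to -0.02, and none of the scalings tried changed a call of a member. No replicate could be left out and no paired analysis was possible because each group has 1 array.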

Other observations

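Genes activated by NRF2, the transcription factor that responds to oxidants and to which several reductases answer, were also measured. Of 21 above the floor, 1 rose and 0 fell by at least 1.5-fold, with a median log2 ratio of 0.08. Among all genes above the floor, 2.49% were higher and 2.16% lower. *Gsta3*, a glutathione transferase, rose from 61.1 to 129, while *Nqo1* went from 78.4 to 97.5 and *Gstm2* from 2339 to 3441 (log2 ratio 0.56), under 1.5-fold. In the polyol and ascorbate pathways around *Akr1b3* and *Akr1a1*, 0 of 10 genes above the floor passed 1.5-fold, with *Sord*, which turns sorbitol into fructose, at 320 and 265.

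*Akr1cl*, an aldo-keto reductase gene on chromosome 1 that is not among the 10 members, gave unlike ratios on its probe sets. The brighter one had signals of 13294 and 13120, a log2 ratio of -0.02, and the dimmer one 938 and 1378, a log2 ratio of 0.55, under 1.5-fold.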
